A study of Saccharomyces cerevisiae with 15 samples.

Results

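Cells of baker's yeast, Saccharomyces cerevisiae, that made the fusion repressor Pdr1-Cyc8 were compared after deletion of the endogenous PDR1 gene and with that gene in place. The comparison rests on 6 of the 15 arrays of the study. These are the 3 arrays titled as the fusion with the deletion (Pdr1-Cyc8 Dpdr1) and the 3 titled as the fusion alone (Pdr1-Cyc8). Arrays were chosen by their titles, and no measured value entered the choice. The study has 5 groups of 3 arrays, which the labels call biological replicates. The other groups are cells with the fusion Pdr1-Sin3, cells with the PDR1 deletion and no named fusion (Dpdr1), and cells with an empty vector. They are used here for the level of a gene beside the comparison, and to ask whether the deletion had the same effect without the fusion. All cells were taken during logarithmic growth in synthetic dextrose medium at 30 degrees C, and total RNA was hybridised to Affymetrix YG-S98 arrays. The strain background, the promoter and plasmid of the fusions, the parts of each protein that were joined and the number of clones are not named in the labels.

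Pdr1 belongs to the zinc cluster transcription factors of fungi and binds short elements in the promoters of pleiotropic drug resistance (PDR) genes. Its paralog Pdr3 binds the same elements. Their targets include plasma membrane ABC transporters, which pump drugs out of the cell, and enzymes of sphingolipid and phospholipid metabolism. Cyc8, also called Ssn6, joins with Tup1 in a general corepressor that has no DNA-binding domain of its own and is brought to genes by other proteins. Sin3 belongs to a histone deacetylase complex. A fusion of Pdr1 with a corepressor was designed by the study to act against the endogenous activator, and the comparison asks which genes differ once that activator is gone. No sequence of these genes or promoters was among the material used here, and none is printed.

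The 3 Pdr1-Cyc8 Dpdr1 arrays and the 3 Pdr1-Cyc8 arrays differ in their hybridisation controls. The bacterial transcripts BioB and BioC, added to every sample, give a difference (BioC minus BioB) of -0.36 to -0.23 on the log2 scale in Pdr1-Cyc8 Dpdr1, against 1.06 to 1.19 in Pdr1-Cyc8. It was -0.64 to -0.20 in Pdr1-Sin3, 1.02 to 1.22 in Dpdr1 and 1.11 to 1.32 in empty vector arrays. Pdr1-Cyc8 Dpdr1 and Pdr1-Sin3 thus form a second set of arrays by these controls. No group holds arrays of both sets, so the control set and the deletion cannot be told apart in this comparison. The levels in Pdr1-Sin3, which has the second set's controls and carries no named deletion, are therefore given beside many of the results, though not for every gene. Pdr1-Sin3 also differs by its own fusion, so these levels do not separate the control set from the deletion. Within Pdr1-Cyc8, replicate 1 stood apart in genes of ribosome assembly. In genes of amino acid synthesis the 3 arrays were spread, and replicate 1 was the highest. Counts without replicate 1 are given with the results that rest on it.

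Levels are log2(signal + 16) after quantile normalisation, so that a level of 4 is a signal of 0. Differences are log2 differences with Pdr1-Cyc8 Dpdr1 first. A probe set was called when the adjusted p of limma over 9275 probe sets was under 0.05, and "rose" and "fell" are used of called probe sets only. Each gene is represented by the brightest of the probe sets that name it alone. Over all 5656 genes, 6.82% rose and 3.66% fell, and the counts of every gene list are to be read beside these shares.

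PDR1 and CYC8 were examined first, as a check of the labels. PDR1 was at 6.79, 7.21 and 6.81 in Pdr1-Cyc8 Dpdr1, against 9.17, 8.93 and 9.10 in Pdr1-Cyc8. Every array with the deletion lay below every array without it, and the gene fell by 2.13 (SE 0.227, adjusted p = 7.98e-05), a 4.37-fold lower signal. In cells without a named fusion the deletion left less PDR1 signal, at 5.05, 4.79 and 4.27 in Dpdr1, against 9.04, 9.25 and 8.93 in empty vector. The remaining signal in Pdr1-Cyc8 Dpdr1 thus lay between those of Dpdr1 and empty vector. The place of the probes within PDR1, and so whether they match the part in the fusion, was not tested. CYC8 was at 11.79, 11.97 and 10.99 in Pdr1-Cyc8 Dpdr1, against 12.61, 12.13 and 12.05 in Pdr1-Cyc8. Both strains with the fusion stood above the means of 8.66 in Pdr1-Sin3, 8.82 in Dpdr1 and 8.69 in empty vector. CYC8 differed by -0.68 between the fusion strains (95% interval -1.26 to -0.11) and was not called (adjusted p = 0.115). PDR3 differed by 0.16, TUP1 by -0.19 and SIN3 by -0.02, and none of them was called. The genes beside PDR1 on the chromosome, PUF4 and ERG4, were chosen by position. They differed by 0.74 and 0.54 (adjusted p = 0.0613 and 0.166).

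The strains labelled with the deletion were not alike at every probe set that could mark it. A probe set with no listed gene read 14.12, 14.00 and 13.79 in Dpdr1, while it read 4.68, 4.17 and 4.57 in Pdr1-Cyc8 Dpdr1. Its level was 4.35 on average in Pdr1-Cyc8 and 4.23 in empty vector. The platform annotation gives no target for this probe set. The 2 groups labelled with the deletion thus differ at this probe set, by more than the fusion's genes. Its part in the comparisons of the deletion with and without the fusion was not tested.

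Several drug resistance genes were lower when PDR1 was deleted in the presence of Pdr1-Cyc8. Of 27 listed PDR genes, 25 were measured, 6 fell and 0 rose. Over all 5656 genes, 3.66% fell and 6.82% rose. The median difference of the 25 was -0.34, beside 0.07 over all genes, and 19 of the 25 lay below 0. The genes that fell were the transporter genes YOR1 and SNQ2, the lipid genes PDR16 and LAC1, and GRE2 and TVS1. Whole cultures were measured, so a smaller share of expressing cells and less RNA per cell cannot be told apart.

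Among the listed PDR transporter genes, YOR1 differed by the largest amount. YOR1, which exports oligomycin and other anions, was at 7.12, 6.90 and 6.99 in Pdr1-Cyc8 Dpdr1, against 9.81, 8.83 and 9.43 in Pdr1-Cyc8. The groups did not overlap, and YOR1 fell by 2.36 (SE 0.342, adjusted p = 0.000948), to a 5.12-fold lower signal. All of the 6 other YOR1 probe sets were lower too, by -2.00 to -0.68, and 4 of them fell. Its level was 8.67, 9.08 and 8.71 in Pdr1-Sin3, above all of the Pdr1-Cyc8 Dpdr1 arrays. SNQ2, a transporter that exports 4-nitroquinoline oxide, was at 7.83, 7.71 and 8.01 in Pdr1-Cyc8 Dpdr1, against 9.52, 10.08 and 9.34 in Pdr1-Cyc8. It fell by 1.79 (SE 0.263, adjusted p = 0.001), with every deletion array below every array of the fusion alone, and was at 9.24, 8.89 and 9.10 in Pdr1-Sin3. For YOR1 and SNQ2 the second set's Pdr1-Sin3 arrays thus lay near Pdr1-Cyc8 and not near Pdr1-Cyc8 Dpdr1. Pdr1-Sin3 carries another fusion and no named deletion, so the control set and the deletion cannot be told apart by it.

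PDR5, which encodes the major drug efflux pump of yeast, did not show this pattern. Its level was 9.38, 9.63 and 8.59 in Pdr1-Cyc8 Dpdr1, against 8.40, 8.95 and 8.55 in Pdr1-Cyc8. The groups overlapped, and the difference of 0.57 was not called (adjusted p = 0.279, 95% interval -0.12 to 1.26). The 6 other PDR5 probe sets differed by -0.58 to 0.29, and 0 of them were called the same way. PDR5 was at 10.44 on average in Dpdr1 and 10.84 in empty vector, so both strains with Pdr1-Cyc8 were below these groups. PDR15, a close relative of PDR5, was at 6.63, 6.74 and 6.65 in Pdr1-Cyc8 Dpdr1, against 7.96, 7.37 and 7.15 in Pdr1-Cyc8. These groups did not overlap, but the difference of -0.82 missed the threshold (adjusted p = 0.0661, 95% interval -1.41 to -0.24). PDR10 differed by -0.34, with an interval of -0.84 to 0.15. The polyamine transporter gene TPO1 differed by -0.54, with an interval of -1.41 to 0.33.

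**Figure D1:**
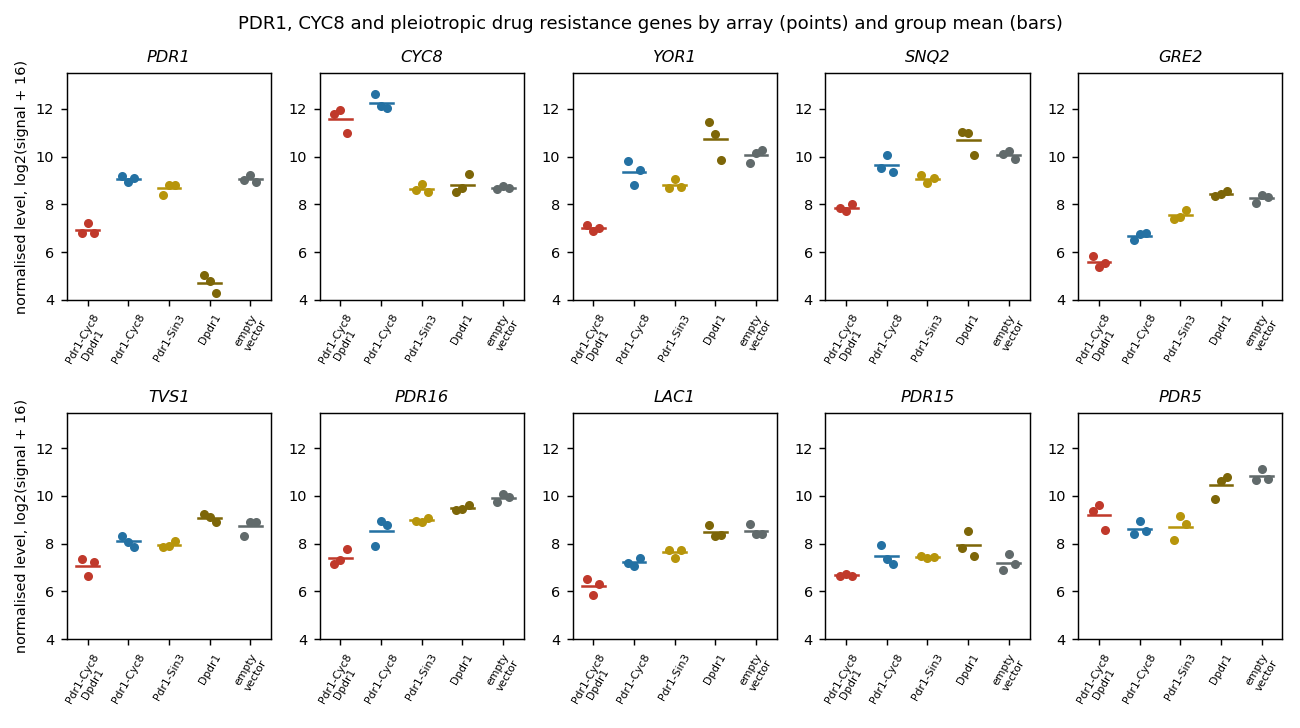
Levels of PDR1, CYC8 and 8 drug resistance genes on each array, as log2(signal + 16) after quantile normalisation, with 3 points and a bar at the mean for each of the 5 groups. YOR1 at 6.90 to 7.12 and SNQ2 at 7.71 to 8.01 lie lower in Pdr1-Cyc8 Dpdr1 than in any other group, while PDR5 overlaps between the fusion strains.

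Of the 6 measured PDR genes of lipid metabolism, 2 fell and 0 rose, with a median difference of -0.64. PDR16, a phosphatidylinositol transfer protein, was at 7.13, 7.32 and 7.77 in Pdr1-Cyc8 Dpdr1, against 7.90, 8.93 and 8.79 in Pdr1-Cyc8. It fell by 1.13 (SE 0.256, adjusted p = 0.0128). The call was lost when replicate 1 of Pdr1-Cyc8 Dpdr1 was left out (adjusted p = 0.0551), or replicate 2 of Pdr1-Cyc8 (adjusted p = 0.0538), or when the fit held the 6 arrays alone (adjusted p = 0.0595). LAC1, a ceramide synthase subunit, was at 6.5, 5.85 and 6.30 in Pdr1-Cyc8 Dpdr1, against 7.19, 7.05 and 7.41 in Pdr1-Cyc8, and fell by 1.0 (SE 0.227, adjusted p = 0.013). Without replicate 2 of Pdr1-Cyc8 Dpdr1 its adjusted p was 0.0547. For PDR16 and LAC1 the groups did not overlap, and the Pdr1-Sin3 arrays lay above the deletion arrays, with means of 8.98 for PDR16 and 7.63 for LAC1. ICT1, a lysophosphatidic acid acyltransferase, was at 7.22, 7.52 and 7.61 in Pdr1-Cyc8 Dpdr1, against 8.88, 8.48 and 7.91 in Pdr1-Cyc8. Its difference of -0.98 was not called (adjusted p = 0.151). The sphingolipid genes IPT1 and SUR2 differed by -0.30 and 0.39, and the lipid translocase gene RSB1 by 0.80, none of them called.

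Of the 13 remaining PDR genes, 2 fell and 0 rose, with a median difference of -0.29. GRE2, a methylglyoxal reductase, was at 5.82, 5.36 and 5.54 in Pdr1-Cyc8 Dpdr1, against 6.51, 6.75 and 6.81 in Pdr1-Cyc8. It fell by 1.11 (SE 0.198, adjusted p = 0.00411). TVS1 was at 7.36, 6.63 and 7.22 in Pdr1-Cyc8 Dpdr1, against 8.34, 8.07 and 7.88 in Pdr1-Cyc8, and fell by 1.03 (SE 0.238, adjusted p = 0.0146). Neither gene had overlapping groups. The call of TVS1 was lost without replicate 2 of Pdr1-Cyc8 Dpdr1 (adjusted p = 0.0606) or replicate 1 of Pdr1-Cyc8 (adjusted p = 0.0667). The Pdr1-Sin3 means were 7.56 for GRE2 and 7.96 for TVS1, again above the Pdr1-Cyc8 Dpdr1 arrays. None of the other 11 was called. RPN4, the transcription factor of proteasome genes, differed by -0.38 and YGR035C by -0.99. AAD14, IMA5, LAF1 and PDR18 differed by -0.34, -0.29, -0.30 and -0.24. CIS1 differed by -0.07, YLL056C by -0.02, YPL088W by 0.00, YIM1 by 0.01 and DDI1 by 0.63.

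For 5 PDR genes, the deletion came with a different change in fusion cells than in cells without a named fusion. The difference made by the deletion in fusion cells was set against the difference made by it in cells without a named fusion, as an interaction in the same limma fit. Of the 25 PDR genes, 5 had a negative interaction that was called and 0 a positive one, beside 4.67% and 7.66% of all genes. YOR1 was at 11.45, 10.95 and 9.86 in Dpdr1, against 9.72, 10.16 and 10.30 in empty vector, a difference of 0.70 that runs opposite to its fall in fusion cells. The interaction of YOR1 was -3.05 (adjusted p = 0.0028). For SNQ2 the interaction was -2.42 (adjusted p = 0.00238), with 11.03, 10.98 and 10.09 in Dpdr1, against 10.11, 10.22 and 9.89 in empty vector. PDR15 had an interaction of -1.55 (adjusted p = 0.0219), TVS1 of -1.40 (adjusted p = 0.0191) and GRE2 of -1.30 (adjusted p = 0.0123). The interaction of PDR15 was lost without replicate 1 of Pdr1-Cyc8 (adjusted p = 0.0627), replicate 2 of Dpdr1 (adjusted p = 0.058) or replicate 1 of empty vector (adjusted p = 0.0635). That of TVS1 was lost without replicate 1 of Pdr1-Cyc8 (adjusted p = 0.0534) or replicate 1 of empty vector (adjusted p = 0.0547). PDR16, which fell in fusion cells, had an interaction of -0.70 that was not called (adjusted p = 0.218), as had LAC1 with -0.95 (adjusted p = 0.0681).

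Other multidrug transporter genes, outside the PDR lists, also held members that fell. Of 16 measured, 3 fell and 0 rose, beside 3.66% and 6.82% of all genes, with a median difference of -0.27. PDR12, which exports weak organic acids, was at 8.65, 8.37 and 9.0 in Pdr1-Cyc8 Dpdr1, against 12.09, 10.57 and 10.57 in Pdr1-Cyc8, and fell by 2.40 (adjusted p = 0.0103). The groups did not overlap, and replicate 1 of Pdr1-Cyc8 was the highest array, without which the adjusted p was 0.0527. TPO2, a polyamine exporter, fell by 1.57 (adjusted p = 0.00527). The sterol importer gene AUS1 fell by 1.39 (adjusted p = 0.0152), but 0 of its 5 other probe sets, at -1.07 to 0.14, were called the same way. Its call was lost without replicate 1 of Pdr1-Cyc8 Dpdr1 (adjusted p = 0.0649) or replicate 1 of Pdr1-Cyc8 (adjusted p = 0.0732). The number that fell was 1 without replicate 1 of Pdr1-Cyc8.

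Over all probe sets, 1033 of 9275 (11.1%) were called, of which 554 rose (5.97%) and 479 fell (5.16%). At an unadjusted p under 0.05 the number was 2532. In genes, 386 of 5656 rose and 207 fell. The number of called probe sets was 537, 623 and 530 when replicate 1, 2 or 3 of Pdr1-Cyc8 Dpdr1 was left out. It was 429 and 637 without replicate 1 or 2 of Pdr1-Cyc8. Genes were ranked among those called with no overlap of the groups and a level of at least 7 in the higher group. The largest rises were those of PHO84, HPF1, YDR034C-A and YBR219C, and the largest falls those of ARG1, ARG3, INO1 and ARO9.

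**Figure D2:**
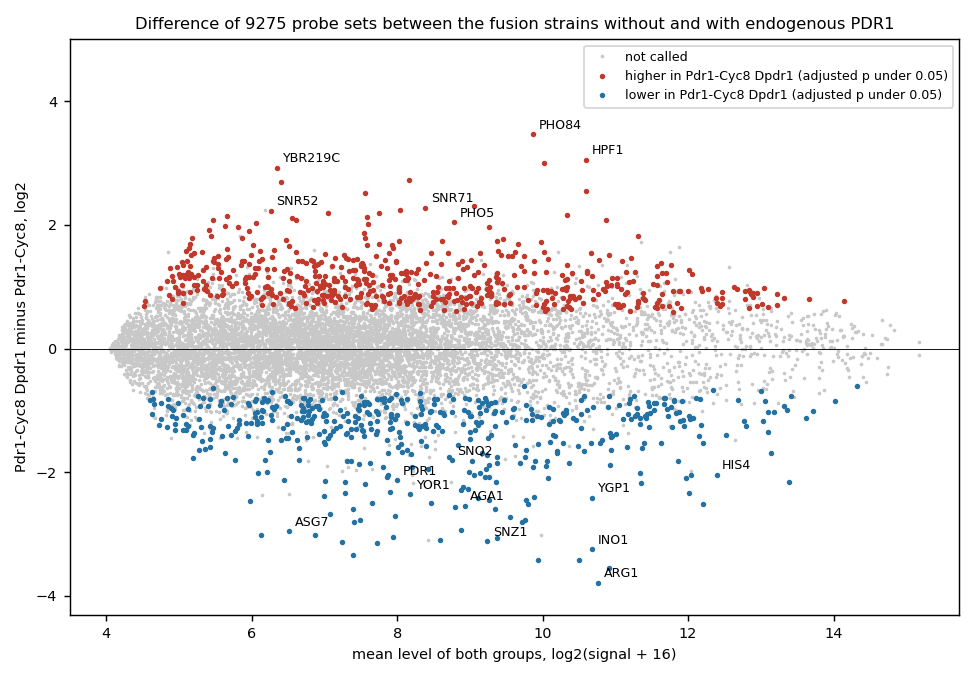
Difference of each of 9275 probe sets (Pdr1-Cyc8 Dpdr1 minus Pdr1-Cyc8, log2) against the mean level of the 2 groups, with called probe sets in colour. 554 lie above 0 and 479 below, and PHO84 (3.46) and ARG1 (-3.79) are at the edges among the named genes.

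Genes of amino acid synthesis were lower in the deletion, those of arginine most of all. The arginine list had 10 measured genes, of which 7 fell and 0 rose, with a median difference of -2.00. ARG1, argininosuccinate synthetase, was at 9.11, 8.64 and 8.87 in Pdr1-Cyc8 Dpdr1, against 13.95, 12.33 and 11.69 in Pdr1-Cyc8. It fell by 3.79 (SE 0.702, adjusted p = 0.00477), a 13.8-fold lower signal. ARG3, ornithine carbamoyltransferase, was at 5.53, 5.90 and 5.73 in Pdr1-Cyc8 Dpdr1, against 10.64, 9.09 and 7.44 in Pdr1-Cyc8, and fell by 3.34 (adjusted p = 0.0308). The deletion arrays lay close together, while the Pdr1-Cyc8 arrays ranged widely with replicate 1 highest. CPA1, a carbamoyl phosphate synthetase subunit, fell by 2.45 (adjusted p = 0.0446). ARG8, an acetylornithine aminotransferase, fell by 2.14 (adjusted p = 0.0458). The list's count was 2, 1 and 1 without replicates 1, 2 and 3 of Pdr1-Cyc8 Dpdr1, and 1 and 1 without replicates 1 and 2 of Pdr1-Cyc8. It was 3 and 4 with pseudocounts of 1 and 64. ARG1 kept its call in each of these, and its Pdr1-Sin3 levels were 10.83, 10.79 and 10.94. By array, the mean level of the arginine genes was 8.62, 8.39 and 8.61 in Pdr1-Cyc8 Dpdr1, against 10.96, 10.21 and 9.52 in Pdr1-Cyc8. It was 9.08, 9.20 and 9.15 in Pdr1-Sin3, 11.16, 11.02 and 9.27 in Dpdr1, and 8.91, 9.30 and 9.89 in empty vector.

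Of 54 genes for the synthesis of other amino acids, 7 fell and 0 rose, with a median difference of -0.51. HIS4, a histidine biosynthesis enzyme, was at 11.21, 11.37 and 11.54 in Pdr1-Cyc8 Dpdr1, against 14.04, 13.33 and 12.87 in Pdr1-Cyc8, and fell by 2.04 (SE 0.329, adjusted p = 0.002). LEU4, isopropylmalate synthase, fell by 2.05 (adjusted p = 0.00275). BAT2, a branched-chain aminotransferase, fell by 1.95 (adjusted p = 0.00474). LYS2, aminoadipate reductase, was at 8.46, 8.72 and 8.45 in Pdr1-Cyc8 Dpdr1, against 11.91, 11.48 and 9.76 in Pdr1-Cyc8, and fell by 2.51 (adjusted p = 0.0296). LYS2 was as low in Pdr1-Sin3, at 8.80, 8.91 and 8.51, and lost its call without any of the 3 deletion arrays or without replicate 1 or 2 of Pdr1-Cyc8 (adjusted p = 0.0648 to 0.122). The list's count was 4 without replicate 1 of Pdr1-Cyc8 and 11 with median centring. The mean level over the list was 10.36, 10.40 and 10.35 in Pdr1-Cyc8 Dpdr1, against 11.35, 10.95 and 10.69 in Pdr1-Cyc8, and 10.31, 10.36 and 10.22 in Pdr1-Sin3. The second set's groups thus had nearly the same mean level over this list.

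Genes for the breakdown of aromatic amino acids followed the same arrays. Of 6 measured, 2 fell. ARO10, phenylpyruvate decarboxylase, was at 5.54, 5.58 and 5.93 in Pdr1-Cyc8 Dpdr1, against 11.17, 8.59 and 6.65 in Pdr1-Cyc8, and fell by 3.12 (SE 0.918, adjusted p = 0.0408). ARO9, an aromatic aminotransferase, was at 6.32, 5.85 and 6.29 in Pdr1-Cyc8 Dpdr1, against 11.12, 9.23 and 7.55 in Pdr1-Cyc8, and fell by 3.15 (SE 0.774, adjusted p = 0.019). The Pdr1-Cyc8 arrays spanned more than the distance between replicate 3 and the deletion arrays. Without replicate 1 of Pdr1-Cyc8 neither gene was called (adjusted p = 0.177 for ARO10 and 0.0872 for ARO9). ARO10 also lost its call without replicate 1, 2 or 3 of Pdr1-Cyc8 Dpdr1 or replicate 2 of Pdr1-Cyc8 (adjusted p = 0.0792 to 0.105), and ARO9 without replicate 2 or 3 of Pdr1-Cyc8 Dpdr1 (adjusted p = 0.0609 and 0.0512). In Pdr1-Sin3, ARO9 averaged 7.60 and ARO10 7.0, and in empty vector 6.85 and 6.29.

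Amino acid permeases and sulfur metabolism held smaller falls. Of 22 nitrogen and permease genes 3 fell, namely BAP3 (-1.25), CAN1 (-1.0) and BAP2 (-0.95), which import branched-chain and basic amino acids. Of 24 sulfate and methionine genes 3 fell, namely MET13 (-1.69), SAM3 (-1.65) and MET1 (-1.08). When replicate 1, 2 or 3 of Pdr1-Cyc8 Dpdr1 was left out, or replicate 1 or 2 of Pdr1-Cyc8, at most 1 gene of either list fell. ADH5, an alcohol dehydrogenase, YHI9, ATG41, YOR302W and DPI8 were also among the 12 largest falls, with differences of -2.81, -2.78, -2.77, -2.59 and -2.57. YOR302W is the upstream open reading frame of CPA1. Without replicate 1 of Pdr1-Cyc8, YHI9 alone of these 5 was still called, and ADH5, ATG41, YOR302W and DPI8 had adjusted p of 0.1, 0.159, 0.135 and 0.117.

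INO1, SNZ1, SNO1, BNA2 and BNA1, of inositol, pyridoxine and NAD synthesis, fell in the deletion. INO1, inositol phosphate synthase, was at 9.03, 8.82 and 9.33 in Pdr1-Cyc8 Dpdr1, against 12.49, 12 and 12.43 in Pdr1-Cyc8. It fell by 3.24 (SE 0.493, adjusted p = 0.00132), a 9.46-fold lower signal, and was called under every alternative tried. Pdr1-Sin3 had 11.63, 12.29 and 12.23, close to Pdr1-Cyc8. INO1 was the 1 gene of 19 in the inositol and phospholipid list that was called. SNZ1, a pyridoxine synthesis gene, was at 7.92, 7.35 and 7.78 in Pdr1-Cyc8 Dpdr1, against 11.65, 10.34 and 10.40 in Pdr1-Cyc8, and fell by 3.11 (SE 0.381, adjusted p = 0.000222). Its divergently transcribed partner SNO1 fell by 2.07 (adjusted p = 0.00232). BNA2 and BNA1, of NAD synthesis from tryptophan, fell by 1.82 (adjusted p = 0.00693) and 1.53 (adjusted p = 0.0246). In all, 4 of 20 vitamin genes fell and 0 rose, and the count was 3 to 6 when 1 array was left out. SNZ1, SNO1 and BNA2 did not lose their calls under any alternative. BNA1 lost its call without replicate 2 or 3 of Pdr1-Cyc8 Dpdr1 (adjusted p = 0.0928 and 0.0753) or replicate 1 of Pdr1-Cyc8 (adjusted p = 0.115).

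Mating genes were lower in the deletion. Of 7 a-specific genes, which are transcribed in cells of mating type a, 5 fell and 0 rose, with a median difference of -1.35. BAR1, the protease that degrades alpha factor, was at 9.24, 8.82 and 9.02 in Pdr1-Cyc8 Dpdr1, against 11.31, 11.06 and 11.01 in Pdr1-Cyc8, and fell by 2.10 (SE 0.256, adjusted p = 0.000222). AGA2, the adhesion subunit of a-agglutinin, was at 8.91, 9.09 and 9.27 in Pdr1-Cyc8 Dpdr1, against 11.55, 10.52 and 10.91 in Pdr1-Cyc8, and fell by 1.90 (adjusted p = 0.00357). Groups overlapped for neither gene. ASG7 fell by 2.95 (adjusted p = 0.00987), and MFA1, which encodes the pheromone a-factor, by 1.35 (adjusted p = 0.0286). The a-factor exporter gene STE6 fell by 0.83 (adjusted p = 0.0386). The receptor gene STE2 differed by 0.00 and was not called. In Pdr1-Sin3, BAR1, AGA2, ASG7 and MFA1 averaged 9.82, 10.34, 6.50 and 13.31, between the means of the fusion strains Pdr1-Cyc8 Dpdr1 and Pdr1-Cyc8. The list's count was 3, 4 and 3 without replicates 1, 2 and 3 of Pdr1-Cyc8 Dpdr1 and 3, 5 and 3 without those of Pdr1-Cyc8.

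Genes induced by mating pheromone in cells of either type fell with them. AGA1, the anchor subunit of a-agglutinin, was at 7.57, 7.64 and 7.77 in Pdr1-Cyc8 Dpdr1, against 10.38, 9.86 and 10.36 in Pdr1-Cyc8. It fell by 2.54 (SE 0.285, adjusted p = 0.000106), a 5.81-fold lower signal. FUS1, a cell fusion protein, was at 5.79, 5.86 and 5.61 in Pdr1-Cyc8 Dpdr1, against 7.19, 7.15 and 7.25 in Pdr1-Cyc8, and fell by 1.44 (adjusted p = 0.00145). In both genes the arrays of each group lay close together and apart from the other group. FIG2 fell by 1.45 (adjusted p = 0.0189) and PRM1 by 1.29 (adjusted p = 0.0167). Of 14 haploid and mating genes, 5 fell and 1 rose, namely STE4, the beta subunit of the pheromone G protein, with a difference of 0.63 (adjusted p = 0.0307). The number called was 2 without replicate 1 of Pdr1-Cyc8 Dpdr1 or of Pdr1-Cyc8, 3 without replicate 2 or 3 of Pdr1-Cyc8 Dpdr1 and 4 without replicate 3 of Pdr1-Cyc8. SST2, which shuts off pheromone signalling and was chosen after its values were seen, was at 7.13, 7.26 and 7.37 in Pdr1-Cyc8 Dpdr1, against 9.40, 9.04 and 9.04 in Pdr1-Cyc8. It fell by 1.91 (adjusted p = 0.000112). SST2 was at 7.33, 7.38 and 6.87 in Pdr1-Sin3, at the level of Pdr1-Cyc8 Dpdr1, while AGA1 at 8.79, 8.74 and 8.64 lay between the fusion strains. FUS1 and FIG2, with Pdr1-Sin3 means of 6.24 and 6.07, also lay between, and PRM1 averaged 6.48, near 6.51 in Pdr1-Cyc8 Dpdr1. The mean level of the 14 haploid and mating genes was 7.93 in Pdr1-Sin3, 7.81 in Pdr1-Cyc8 Dpdr1 and 8.45 in Pdr1-Cyc8.

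Of the 4 alpha-specific genes 2 fell. MF(ALPHA)1, which encodes alpha factor, was at 7.34, 6.81 and 7.49 in Pdr1-Cyc8 Dpdr1, against 9.04, 8.58 and 8.81 in Pdr1-Cyc8, and fell by 1.60 (adjusted p = 0.00849). SAG1, alpha-agglutinin, fell by 1.31 (adjusted p = 0.0167). The Pdr1-Sin3 means were 7.73 for MF(ALPHA)1 and 6.71 for SAG1. SAG1 lost its call without replicate 2 or 3 of Pdr1-Cyc8 Dpdr1 (adjusted p = 0.0566 and 0.0535), or replicate 1 of Pdr1-Cyc8 (adjusted p = 0.0732). Both mating types' genes thus moved the same way, and the part of the control set in this was not tested.

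**Figure D3:**
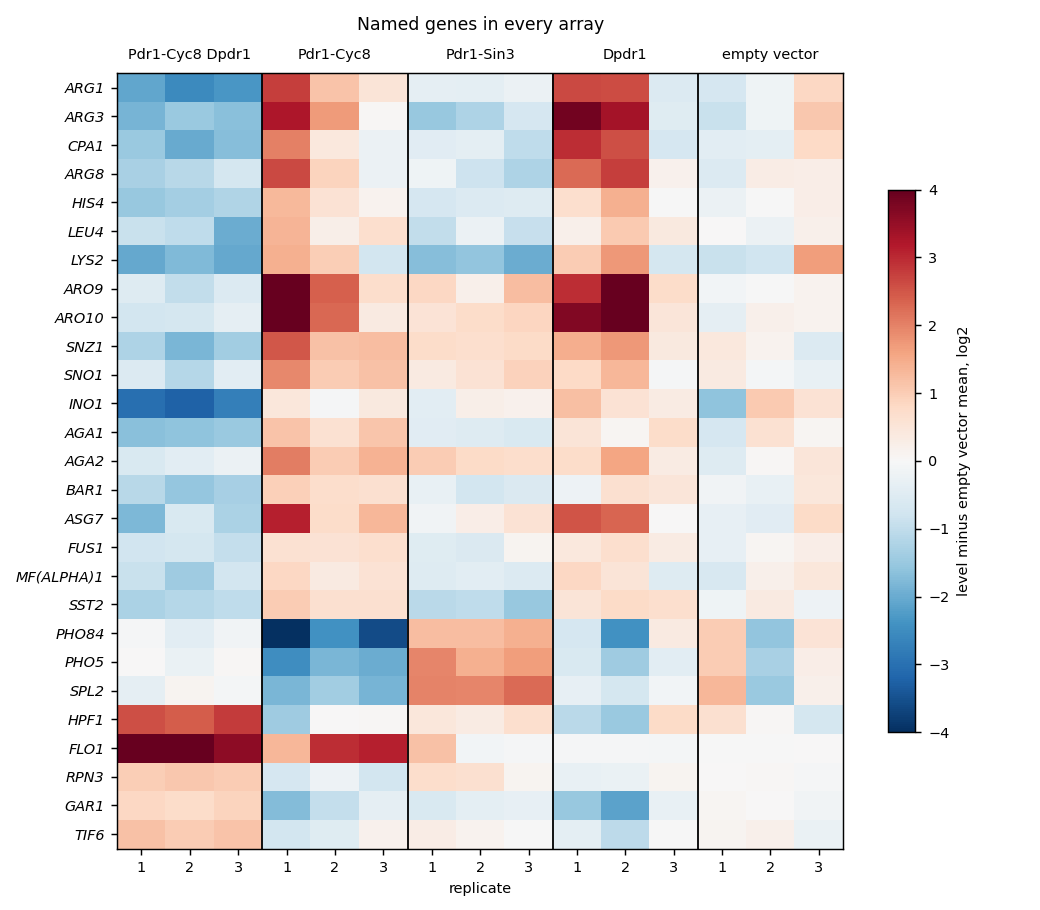
Level of 27 named genes on every array, as log2 difference from the empty vector mean of that gene (colour from -4 to 4, values beyond shown at the end colours), in the order of the 5 groups with 3 replicates each. The arginine and aromatic amino acid genes are high in replicate 1 of Pdr1-Cyc8 and replicates 1 and 2 of Dpdr1, whereas INO1 and AGA1 differ evenly between the fusion strains.

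Genes of the phosphate starvation response were higher in the deletion. Of 17 measured, 7 rose and 1 fell, with a median difference of 0.63. PHO84, the high-affinity phosphate transporter, was at 11.76, 11.38 and 11.67 in Pdr1-Cyc8 Dpdr1, against 6.80, 9.39 and 8.23 in Pdr1-Cyc8. It rose by 3.46 (SE 0.716, adjusted p = 0.00824), an 11.0-fold higher signal. PHO5, the secreted acid phosphatase, was at 9.89, 9.60 and 9.92 in Pdr1-Cyc8 Dpdr1, against 7.37, 8.02 and 7.89 in Pdr1-Cyc8, and rose by 2.05 (SE 0.435, adjusted p = 0.00906). The empty vector levels, 12.83, 10.23 and 12.37 for PHO84 and 10.88, 8.57 and 10.12 for PHO5, were spread around those of Pdr1-Cyc8 Dpdr1. In Pdr1-Sin3 they were higher, at 13.05, 13.03 and 13.24 for PHO84 and 11.82, 11.29 and 11.52 for PHO5. PHO89, SPL2, VTC1, VTC2 and VTC3, a phosphate transporter, a regulator of phosphate uptake and subunits of polyphosphate synthase, rose by 1.33, 1.59, 1.23, 0.90 and 0.97. PHM8, a nucleotide phosphatase, fell by 1.64 (adjusted p = 0.0347). The number called was 4 and 3 without replicate 1 or 3 of Pdr1-Cyc8 Dpdr1, and 3 and 5 without replicate 1 or 2 of Pdr1-Cyc8. PHO84 and PHO5 were called under every alternative tried.

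Cell surface genes moved both ways. HPF1, a mannoprotein of the cell wall, was at 12.11, 11.95 and 12.32 in Pdr1-Cyc8 Dpdr1, against 8.11, 9.55 and 9.56 in Pdr1-Cyc8. It rose by 3.05 (SE 0.506, adjusted p = 0.00242), an 8.30-fold higher signal, and Pdr1-Sin3 was at 9.98, 9.84 and 10.18. FLO1, a flocculin that holds cells together, was at 8.28, 8.40 and 7.84 in Pdr1-Cyc8 Dpdr1, against 5.59, 7.21 and 7.38 in Pdr1-Cyc8, and rose by 1.44 (adjusted p = 0.0324). Its means were 4.61 in Pdr1-Sin3, 4.21 in Dpdr1 and 4.27 in empty vector, so both strains with Pdr1-Cyc8 had more FLO1 signal than the others. FLO1 lost its call without replicate 1, 2 or 3 of Pdr1-Cyc8 Dpdr1 (adjusted p = 0.0533 to 0.0958), or replicate 1 of Pdr1-Cyc8 (adjusted p = 0.128). YGP1, a secreted glycoprotein of stationary phase, was at 9.29, 9.29 and 9.83 in Pdr1-Cyc8 Dpdr1, against 12.07, 12.14 and 11.44 in Pdr1-Cyc8. It fell by 2.41 (SE 0.286, adjusted p = 0.000175), while Pdr1-Sin3 was at 12.25, 12.48 and 12.39.

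Of 34 cell wall genes in all, 8 fell and 1 rose, beside 3.66% and 6.82% of all genes, with a median difference of -0.29. GSC2, a glucan synthase subunit, fell by 1.72 (adjusted p = 0.0262), and 5 of its 6 other probe sets, at -2.94 to -1.45, fell as well. PIR3 fell by 1.67 (adjusted p = 0.0211), CHS3, the main chitin synthase, by 1.24 (adjusted p = 0.00335), and CRH1, which links chitin to glucan, by 1.16 (adjusted p = 0.0141). HSP150, SED1 and SHC1 fell by 0.76, 0.69 and 0.80. The number called was 4, 4 and 6 without replicates 1, 2 and 3 of Pdr1-Cyc8 Dpdr1, and 3 and 4 without replicates 1 and 2 of Pdr1-Cyc8. It was 4 with the 6 arrays alone in the fit.

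Small noncoding RNAs had higher signals in the deletion arrays, and so did the other group of the second control set. These classes were taken from the RefSeq gene types after their values were seen. Of 57 genes of small nucleolar RNAs (snoRNAs), which guide the modification of ribosomal RNA, 21 rose and 0 fell, with a median difference of 0.80. Of 91 transfer RNA (tRNA) genes, 29 rose and 0 fell, with a median of 0.83. SNR52, a snoRNA, was at 7.19, 7.64 and 7.31 in Pdr1-Cyc8 Dpdr1, against 5.39, 4.89 and 5.18 in Pdr1-Cyc8, and 8.36, 8.17 and 7.72 in Pdr1-Sin3. SNR71 rose by 2.28 (adjusted p = 0.00275), SNR52 by 2.23 (adjusted p = 0.00024), and the spliceosomal SNR14 by 2.20 (adjusted p = 0.00124). The telomerase RNA gene TLC1, chosen after its values were seen, rose by 1.45 (adjusted p = 0.00693). The Pdr1-Sin3 arrays had high SNR71 and SNR14 signals too, with means of 9.01 and 7.96.

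The mean level of the snoRNA genes was 7.30, 7.36 and 7.33 in Pdr1-Cyc8 Dpdr1, against 6.11, 6.48 and 6.91 in Pdr1-Cyc8. It was 7.06, 7.18 and 7.05 in Pdr1-Sin3, 6.51, 6.30 and 6.56 in Dpdr1, and 7.02, 6.54 and 6.80 in empty vector. That of the tRNA genes was 7.69, 7.59 and 7.32 in Pdr1-Cyc8 Dpdr1, against 6.69, 6.46 and 6.86 in Pdr1-Cyc8, with 7.23, 6.91 and 7.44 in Pdr1-Sin3. Both second-set groups thus lay above the first set in these RNAs, and the control set and the deletion cannot be told apart here. The control probe sets for 25S ribosomal RNA were at 6.38 to 6.75 in Pdr1-Cyc8 Dpdr1, against 5.56 to 5.92 in Pdr1-Cyc8. They were at 6.23 to 7.0 in Pdr1-Sin3 and 5.81 to 6.73 in Dpdr1. The number of snoRNA genes called was 13 without replicate 3 of Pdr1-Cyc8 Dpdr1, and 11 without replicate 1 of Pdr1-Cyc8. With array 1 of Pdr1-Cyc8 Dpdr1 left out, 18 tRNA genes were called, and with array 2 of Pdr1-Cyc8 left out, 19.

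**Figure D4:**
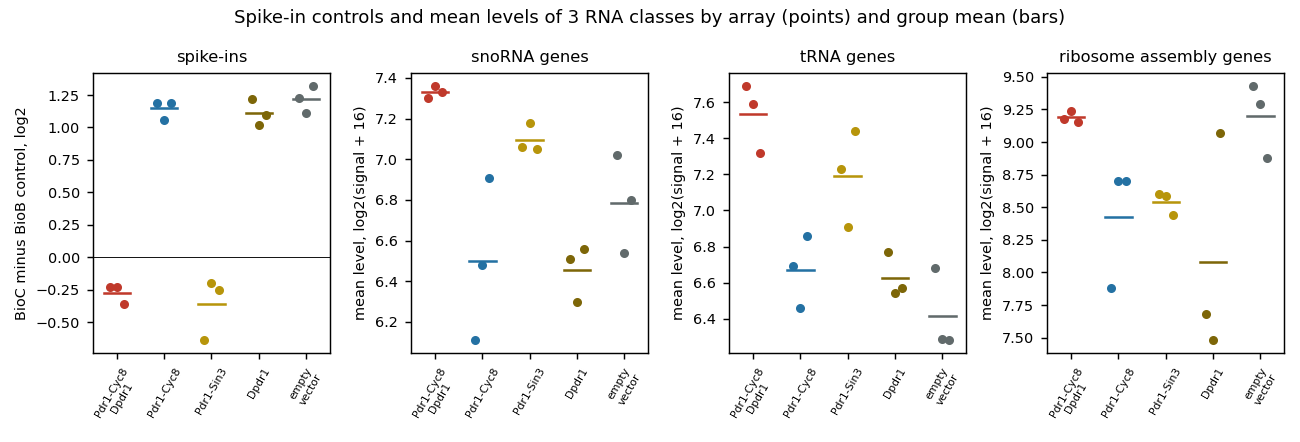
Difference of the spike-in controls BioC and BioB (log2) and mean levels of the snoRNA, tRNA and ribosome assembly genes (log2(signal + 16)) on each of 15 arrays, with a bar at each group mean. The Pdr1-Cyc8 Dpdr1 and Pdr1-Sin3 arrays lie below 0 in the controls and highest in the snoRNA and tRNA means, while in ribosome assembly genes replicate 1 of Pdr1-Cyc8 (7.88) and replicates 1 and 2 of Dpdr1 (7.68 and 7.48) lie low.

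Protein-coding genes of ribosome assembly were shifted as a list, with few of them called. Of 69 measured, 7 rose and 0 fell, while 68 of the 69 differences lay above 0, with a median of 0.76. GAR1, a protein of snoRNA particles, was at 12.22, 12.14 and 12.29 in Pdr1-Cyc8 Dpdr1, against 9.68, 10.45 and 11.05 in Pdr1-Cyc8, and rose by 1.82 (SE 0.380, adjusted p = 0.00849). TIF6, needed for the large ribosomal subunit, was at 12.01, 11.84 and 11.98 in Pdr1-Cyc8 Dpdr1, against 10.08, 10.36 and 10.99 in Pdr1-Cyc8, and rose by 1.46 (adjusted p = 0.00517). CIC1 rose by 1.74 (adjusted p = 0.0134) and RRP15 by 1.11 (adjusted p = 0.00784). The mean level of the list was 9.18, 9.24 and 9.15 in Pdr1-Cyc8 Dpdr1, against 7.88, 8.70 and 8.70 in Pdr1-Cyc8. It was 8.60, 8.59 and 8.44 in Pdr1-Sin3, 7.68, 7.48 and 9.07 in Dpdr1, and 9.43, 9.29 and 8.88 in empty vector. The deletion arrays thus lay at the empty vector level, and the 3 low arrays were replicate 1 of Pdr1-Cyc8 and replicates 1 and 2 of Dpdr1. Without replicate 1 of Pdr1-Cyc8 the count was 4, without replicate 1 of Pdr1-Cyc8 Dpdr1 it was 4, and without replicate 3 of Pdr1-Cyc8 it was 11. It was 15 with array weights and 21 in a fit of the second set's arrays and Pdr1-Cyc8.

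Of 31 proteasome subunit genes, 11 rose and 0 fell, with a median difference of 0.52. RPN3, of the regulatory lid, was at 9.87, 9.97 and 9.91 in Pdr1-Cyc8 Dpdr1, against 8.24, 8.70 and 8.16 in Pdr1-Cyc8, and rose by 1.55 (SE 0.215, adjusted p = 0.000652). RPN9, also of the lid, was at 10.34, 10.57 and 10.58 in Pdr1-Cyc8 Dpdr1, against 9.04, 9.54 and 9.24 in Pdr1-Cyc8, and rose by 1.22 (adjusted p = 0.00767). Neither overlapped between the fusion strains. PRE10, of the catalytic core, rose by 0.98 (adjusted p = 0.0111) and RPN6 by 0.95 (adjusted p = 0.0294). The mean level of the list was 10.18, 10.42 and 10.22 in Pdr1-Cyc8 Dpdr1, against 9.70, 9.77 and 9.88 in Pdr1-Cyc8. Pdr1-Sin3 had 9.82, 9.85 and 9.77, and no array outside Pdr1-Cyc8 Dpdr1 was above 9.88. The number called was 5, 4 and 3 without replicates 1, 2 and 3 of Pdr1-Cyc8 Dpdr1, and 3 and 4 without replicates 1 and 2 of Pdr1-Cyc8. It was 5 with the 6 arrays alone in the fit and 5 with median centring. RPN4, the activator of these genes and itself a PDR gene, was not called.

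Some ribosomal protein and respiratory genes rose, beside 6.82% of all genes. Of 24 measured genes of cytosolic ribosomal proteins, 5 rose and 0 fell, with a median of 0.35, among them RPS0A (0.96), RPL25 (0.90), RPL32 (0.89) and RPS13 (0.82). Of 43 respiratory genes, 6 rose and 0 fell, with a median of 0.28, among them COX6 (0.95), ATP16 (0.94), COX4 (0.85) and ATP20 (0.82). The numbers that rose were 1 and 3 without replicate 1 of Pdr1-Cyc8 and 3 and 1 without replicate 2 of Pdr1-Cyc8 Dpdr1. With any other array of these groups left out they were 2 to 4 and 1 to 3. They were 3 and 2 with median centring in place of quantile normalisation, and 1 and 2 with the 6 arrays alone in the fit.

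Of the gene groups that Cyc8 and Tup1 are known to repress, the a-specific list had 5 of 7 members that fell. Of 4 measured flocculin genes, FLO1 alone rose and 0 fell, with a median difference of -0.30. The glucose-repressed and hypoxic lists had 3 of 28 and 3 of 18 called. Over all genes, 6.82% rose and 3.66% fell. Of the 28 genes in the glucose-repressed list 2 rose (MDH2 by 1.51 and STD1 by 0.91) and 1 fell (MIG2 by 1.09). The list's median difference was 0.06, close to that of all genes. STD1 and MIG2 are regulators of glucose signalling, so their calls do not speak for glucose-repressed genes. MDH2 and MIG2 lost their calls without replicate 1, 2 or 3 of Pdr1-Cyc8 Dpdr1 or replicate 1 or 2 of Pdr1-Cyc8 (adjusted p = 0.0611 to 0.155), while STD1 kept its call. Of 18 hypoxic genes 3 rose, namely TIR1 (1.08), CYC7 (1.03) and TIR3 (1.01), with a median of 0.07. In Pdr1-Sin3, TIR1 averaged 11.90, near 11.73 in Pdr1-Cyc8 Dpdr1 and above 10.65 in Pdr1-Cyc8. CYC7, at 7.49 there, lay between the fusion strains, and TIR3, at 9.81, below both. The groups overlapped for MDH2, CYC7 and TIR3, and TIR1, CYC7 and TIR3 all lost their calls without replicate 1 of Pdr1-Cyc8 (adjusted p = 0.178, 0.174 and 0.164), and with a pseudocount of 1. Of 12 hexose transporter genes 2 rose and 1 fell. HXT3, a low-affinity glucose transporter, was at 10.27, 9.86 and 10.12 in Pdr1-Cyc8 Dpdr1, against 11.62, 10.83 and 12.21 in Pdr1-Cyc8, and fell by 1.47 (SE 0.293, adjusted p = 0.00686). GAL2 rose by 1.30 and HXT10 by 0.94, and both lost their calls without replicate 1 or 3 of Pdr1-Cyc8 Dpdr1 or replicate 1 of Pdr1-Cyc8 (adjusted p = 0.0704 to 0.151). Of 14 meiotic genes, SPR3 fell by 1.14 and IME1 by 0.85. SPR3 was at 4.16, 4.30 and 4.09 in Pdr1-Cyc8 Dpdr1, near the level of no signal. Its difference ranged from -2.99 to -0.43 over the alternatives, and was not called with a pseudocount of 64 (adjusted p = 0.0564). SPR3 lost its call without replicate 1 or 3 of Pdr1-Cyc8 Dpdr1 or replicate 2 or 3 of Pdr1-Cyc8 (adjusted p = 0.0634 to 0.0742). IME1 lost its call without replicate 2 or 3 of Pdr1-Cyc8 Dpdr1 or replicate 1 or 2 of Pdr1-Cyc8 (adjusted p = 0.0754 to 0.111). No ribonucleotide reductase or DNA damage gene of the 9 measured was called, with RNR1 at 1.14 (adjusted p = 0.0948) and RNR3 at -0.89 (adjusted p = 0.209).

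**Figure D5:**
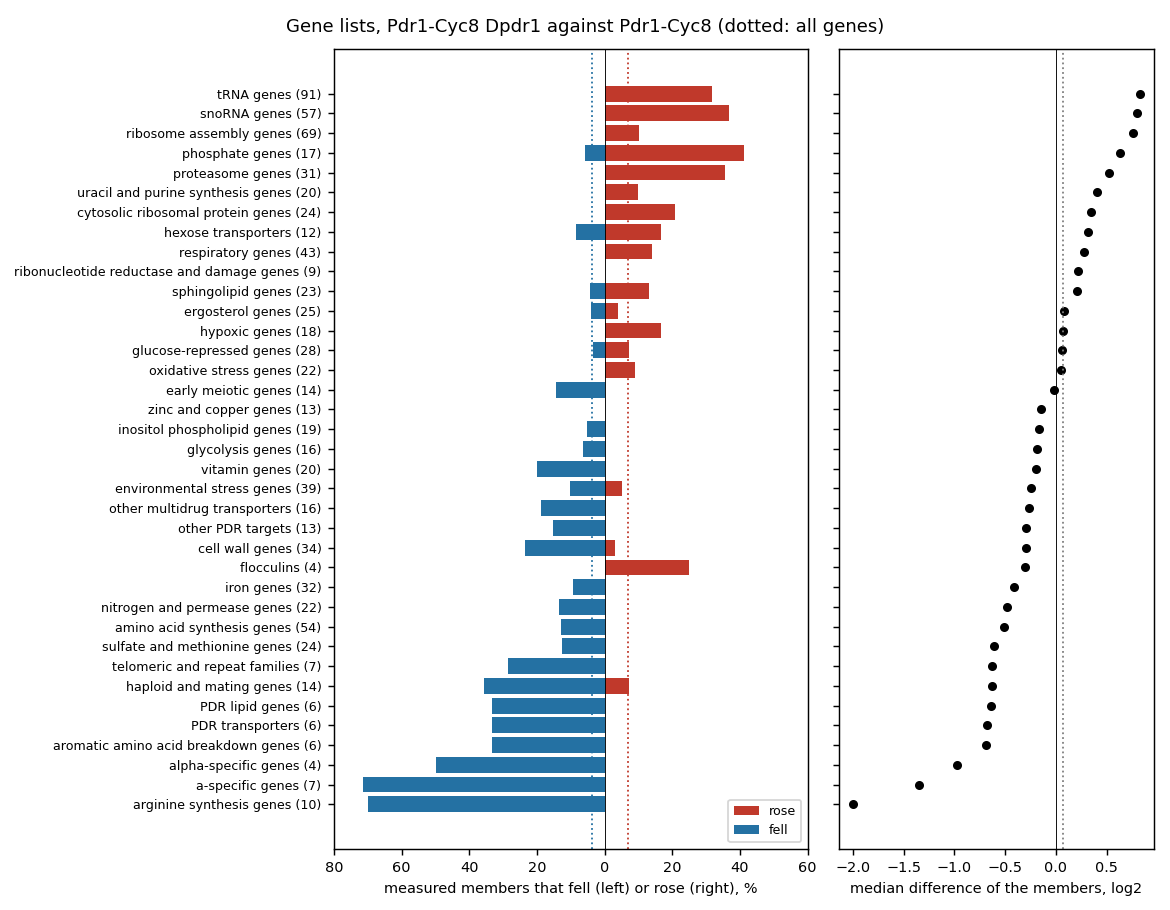
Share of the measured members of each gene list (number in brackets) that fell or rose, in percent, and the median log2 difference of its members, both for Pdr1-Cyc8 Dpdr1 against Pdr1-Cyc8. Dotted lines give the shares of all 5656 genes (3.66% fell and 6.82% rose) and their median (0.07), and the arginine and a-specific lists are lowest, with medians of -2.00 and -1.35.

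Stress, metal and lipid genes held single members that moved. Of 39 environmental stress genes 4 fell and 2 rose, with HSP30 (-2.45), YGP1 (-2.41) and GSY2 (-1.05) among the falls and GRE1 (1.05) among the rises. The number was 1 without replicate 1 of Pdr1-Cyc8 or replicate 3 of Pdr1-Cyc8 Dpdr1, and HSP30 and GSY2 were not called in either case. It was 2 without replicate 1 of Pdr1-Cyc8 Dpdr1, and 3 without replicate 2 of either group. Of 32 iron genes 3 fell, namely FIT2 (-1.54), SMF3 (-1.19) and COT1 (-1.04), with 1 called in each of the same 2 cases and 8 without replicate 3 of Pdr1-Cyc8. None of 13 zinc and copper genes was called, with ZAP1 at -0.78 (adjusted p = 0.0613) and CRS5 at -0.68 (adjusted p = 0.373). In sphingolipid synthesis, TSC3 rose by 1.24, TSC10 by 0.73 and LCB2 by 0.73, and LCB5 fell by 0.88. TSC3, a regulator of serine palmitoyltransferase, was at 11.90, 11.47 and 11.93 in Pdr1-Cyc8 Dpdr1, against 10.40, 10.55 and 10.64 in Pdr1-Cyc8 (adjusted p = 0.00478). TSC3 was the 1 gene of this list still called without replicate 1 or 3 of Pdr1-Cyc8 Dpdr1 or replicate 1 or 2 of Pdr1-Cyc8, with adjusted p of 0.0646 to 0.193 for TSC10, LCB2 and LCB5. In Pdr1-Sin3, SMF3, LCB2 and LCB5 averaged 8.95, 11.90 and 7.57, near their Pdr1-Cyc8 Dpdr1 means of 8.90, 11.94 and 7.62. COT1, TSC3 and TSC10, at 8.80, 11.28 and 9.46 in Pdr1-Sin3, lay between Pdr1-Cyc8 Dpdr1 and Pdr1-Cyc8. FIT2, at 11.32, lay above both, as did the stress genes YGP1 (12.37) and GSY2 (10.64). HSP30, at 7.12 in Pdr1-Sin3, lay below both, and GRE1, at 6.54, lay near its Pdr1-Cyc8 mean of 6.48. In ergosterol synthesis, ERG6 rose by 1.09 and the sterol esterification gene ARE1 fell by 1.01. TDH1, of 16 glycolytic genes, fell by 1.02. The antioxidant genes GPX2 and TRR1 rose by 1.18 and 0.68, 2 of 22. The uracil and purine list had 2 of 20 that rose, URA6 by 1.15 and URA5 by 0.88. Over all genes, 6.82% rose and 3.66% fell, and the counts in this paragraph were not tested against those shares. The subtelomeric genes COS4 and COS12 fell by 1.54 and 0.81, out of 7. Without replicate 1 of Pdr1-Cyc8 the calls of ERG6, TDH1, TRR1, URA6, URA5 and COS12 were lost (adjusted p = 0.0699 to 0.122), and each of these calls was also lost without at least 1 of the deletion arrays (adjusted p = 0.0567 to 0.122). ARE1, GPX2 and COS4 kept theirs under every alternative tried. Of 9 auxotrophic marker genes LYS2 and CAN1 fell.

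Some retrotransposon genes were among those that fell, and the share of all such genes that fell was not counted. Of the 328 probe sets that name several genes of any kind, 65 fell (19.8%) and 14 rose. Over all probe sets, 5.16% fell and 5.97% rose. No gene is named from the 328, and how many of them are retrotransposons was not counted. Among probe sets of 1 gene, chosen after their values were seen, YHR214C-B, a Ty1 element gene, was at 10.98, 11.05 and 10.80 in Pdr1-Cyc8 Dpdr1, against 14.16, 13.22 and 13.00 in Pdr1-Cyc8. It fell by 2.51 (SE 0.298, adjusted p = 0.000175), a 5.71-fold lower signal. YAR009C, another Ty1 gene, fell by 2.17 (adjusted p = 0.000276), and the Ty3 gene YGR109W-B by 1.61 (adjusted p = 0.00838). YHR214C-B was at 12.35, 11.95 and 12.92 in Pdr1-Sin3 and averaged 13.15 in empty vector, so Pdr1-Cyc8 Dpdr1 was the lowest group. YAR009C averaged 11.85 in Pdr1-Sin3, against 10.27 in Pdr1-Cyc8 Dpdr1 and 12.44 in Pdr1-Cyc8. YGR109W-B averaged 10.88 in Pdr1-Sin3, close to 10.56 in Pdr1-Cyc8 Dpdr1, against 12.17 in Pdr1-Cyc8. Of the 22 other YGR109W-B probe sets, at -2.16 to 0.34, 11 fell. Copies of an element share sequence, so which copy gave the signal is uncertain.

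The remaining genes with the largest rises have few shared features. YBR219C was at 8.48, 7.63 and 7.30 in Pdr1-Cyc8 Dpdr1, against 5.28, 4.75 and 4.60 in Pdr1-Cyc8, and rose by 2.92 (SE 0.320, adjusted p = 8.92e-05), with Pdr1-Sin3 at 6.57, 6.33 and 6.65. YDR034C-A rose by 3.01 (adjusted p = 5.81e-05), but 0 of its 6 other probe sets, at -0.88 to 0.45, were called the same way, so the probe sets of this gene disagree. LSM2, of the complex that binds the end of U6 RNA, rose by 1.97 (adjusted p = 0.000222). SPS100, a spore wall protein, rose by 1.87 (adjusted p = 0.00195), and BRE5, a ubiquitin protease cofactor, by 1.77 (adjusted p = 0.00686). The calls of these 5 genes held under every alternative tried.

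The deletion came with a different change in fusion cells than in cells without a named fusion at 1067 probe sets, by the interaction, of which 575 (6.20%) were positive and 492 (5.30%) negative. At an unadjusted p under 0.05 the number was 2634. The interaction rests on arrays that differ in their control set and on Dpdr1 arrays that spread widely. The count was 1805 without replicate 3 of Dpdr1, 462 and 627 without its replicates 2 and 1, and 436 without replicate 1 of empty vector. It was 442 without replicate 1 of Pdr1-Cyc8, and 609, 709 and 668 without replicates 1, 2 and 3 of Pdr1-Cyc8 Dpdr1. With replicate 1 of Pdr1-Cyc8 and replicates 1 and 2 of Dpdr1 left out together, the 3 arrays lowest in ribosome assembly genes, it was 51. By gene list, 40 of 69 ribosome assembly genes had a called positive interaction, beside 7.66% of all genes. Without the fusion, the ribosome assembly genes were on average lower in Dpdr1 than in empty vector on 2 of the 3 Dpdr1 arrays. Of 10 arginine genes 8 had a called negative interaction, and of 7 a-specific genes 6, beside 4.67% of all genes.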

How the data were processed

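RNA of 15 yeast cultures was measured on 1 array type. The deposited table holds linear intensities, 1 per probe set and array. The authors' software, background correction and scaling for these intensities are not named in the labels or the file header. Each array had a mean of 500.5 to 500.7 after 2% was trimmed at either end, so a common scaling was already in place. Per the labels' protocols, each cRNA came from 10 ug of total RNA and carried biotin.

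Of 9335 probe sets, 60 controls were left out. Of the 9275 tested, 6504 had 1 gene in the platform annotation, 328 had several and 2443 had none. They covered 5656 genes, with symbols taken from RefSeq. Intensities of all arrays were brought to the same quantiles and expressed as log2(value + 16). Limma 3.58.1 (R 4.3.3) was fitted once to all 15 arrays by group mean, with residual and prior degrees of freedom of 10 and 5.35. P-values were adjusted by Benjamini-Hochberg over 9275 probe sets, separately for the difference between the fusion strains and for the interaction, and an adjusted p under 0.05 was called. Replicate spread is that of the arrays the labels call biological replicates, 3 per group, and this number limits the precision. Replicate numbers were not used as pairs.

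Named genes are PDR1, PDR3, CYC8, TUP1, SIN3, all measured PDR genes, the 12 largest called rises and falls (no overlap, level of at least 7 in the higher group), up to 4 called members of each of 37 gene lists (or 2 where none was called), and the 3 largest interactions each way. PUF4 and ERG4 were named by their position beside PDR1. Other genes named were chosen after their values were seen. The members and lists were chosen with earlier results of these data known. On simulated data, 53% of 2-fold and 93% of 4-fold changes were recovered, with 21 false calls over 9275 probe sets. The simulated noise was independent between probe sets and arrays, and changes were placed only in probe sets of mean level above 7. No array stood apart in it and no second control set was simulated, so it does not measure false calls that come from either. Alternatives were other normalisations, pseudocounts, filters, priors, array weights, a replicate block and arrays left out. Figures were drawn with matplotlib 3.10.9.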

Additional observations from a re-analysis of the deposited data

Results flagged for a closer look

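The results below stand out because the change that came with the PDR1 deletion differed between cells with Pdr1-Cyc8 and cells without a named fusion, by the interaction test in limma. This held for 1067 probe sets. Values are the log2 difference of Pdr1-Cyc8 Dpdr1 from Pdr1-Cyc8, less that of Dpdr1 from empty vector. In drug resistance genes the values were -3.05 for YOR1, -2.42 for SNQ2, -1.55 for PDR15, -1.40 for TVS1 and -1.30 for GRE2. For PDR1 itself the value was 2.25, since less PDR1 signal was lost in fusion cells. The largest values were ranked among called genes with no overlap of the fusion strains and a group mean level of at least 7. The largest positive ones were those of PHO84 (4.38), HPF1 (3.65) and YBR219C (3.49). The largest negative ones were those of ARO10 (-5.93), ARO9 (-5.77) and ARG3 (-5.58). Of these 12 genes, PDR1 and YBR219C (2 in all) kept an adjusted p under 0.05 under every alternative tried. Outside this ranking, the probe set with no listed gene that was high in Dpdr1 had a value of -9.61.

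The values move with other measures, whose part was not tested. ARO10 and ARO9 averaged 9.09 and 9.48 in Dpdr1, against 6.29 and 6.85 in empty vector, and were high on replicate 1 of Pdr1-Cyc8. The arrays of Pdr1-Cyc8 Dpdr1 have spike-in controls unlike those of Dpdr1, Pdr1-Cyc8 and empty vector, and control set and group cannot be told apart. With replicate 1 of Pdr1-Cyc8 and replicates 1 and 2 of Dpdr1 left out, fewer arrays remain, and the values were -1.93 for YOR1 (adjusted p = 0.0672), -1.87 for SNQ2 (adjusted p = 0.0672) and -1.52 for GRE2 (adjusted p = 0.087).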

How the results depend on the processing

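With the values as deposited, median centring, pseudocounts of 1 and 64, the dimmest 25% left out, an intensity trend, the 6 arrays alone and array weights, 716 to 1382 probe sets were called, against 1033 as reported. Rises made up 53.6% of the calls as reported, and 62.5% with the values as deposited. Leaving out 1 array gave 429 to 934. In the PDR genes 4 to 8 of 25 were called, and 4 to 7 with 1 array left out. For the interaction the count of 1067 became 710 with a pseudocount of 1 and 436 to 1805 with 1 array left out. Chosen after seeing the data, leaving out replicate 1 of Pdr1-Cyc8 and replicates 1 and 2 of Dpdr1 gave 654 calls and 51 interactions. The lone Dpdr1 array is there assumed to vary like the other groups. A fit of the second set's arrays and Pdr1-Cyc8, also chosen after seeing the data, gave 1168. Fewer samples remain in each of these fits, and beyond that the cause was not tested. With the replicate number as a block the counts were 824 probe sets, 6 PDR genes and 880 interactions. To see whether the numbers paired the samples, each array's deviations from its group mean were correlated. For same-numbered arrays of Pdr1-Cyc8 Dpdr1 and Pdr1-Cyc8 these correlations were 0.03, -0.02 and -0.06, so no pairing was seen. The levels themselves correlated at 0.902 or more between any 2 arrays. Of 143 named genes 114 were called, 51 of them under every alternative, and 0 changed sign. Of the 29 not called, 7 changed sign, none larger than 0.24 in size. Signal limits genes near the level of 4, where 858 to 1383 probe sets per array had a signal under 16.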
